A study of Mus musculus with 15 samples.

Results

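The 10 genes described here encode proteins with which the intestinal epithelium defends its surface, and they were chosen by name from 43629 genes in the count table. They are Reg1, Reg3a, Reg3b and Reg3g, which encode secreted C-type lectins, Retnlb, which encodes a goblet cell product, Lypd8, which encodes a surface protein that binds bacterial flagella, Pigr, which encodes the receptor that carries IgA across the epithelium, and Nos2, Duox2 and Duoxa2, which serve the production of nitric oxide and hydrogen peroxide. All 10 were present in the gene tables of 15 RNA-seq libraries from mouse small-intestinal organoids, which are epithelial cultures grown from crypts in Matrigel. The study asked how a Ptprk-Rspo3 chromosome rearrangement and loss of Apc, both of which let organoids grow without added R-spondin, alter the epithelium.

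All libraries came from strain C57B6/129. The WT group held 5 libraries in medium with EGF, Noggin and R-spondin 1 (ENR). These were lines 1, 2, 5 and 6, which carried homozygous floxed Apc alleles that had not been recombined, and 1 doxycycline-naive culture (NAIVE), in which the inducible Cas9 had not been switched on. The Apc group held 4 libraries with the same line numbers after homozygous deletion of Apc (Apc delta/delta), grown in EGF and Noggin alone (EN). The P-Rspo3 group held 4 libraries labelled 15d, 4d, M and F, also in EN. They carried the Ptprk-Rspo3 inversion, made with doxycycline-inducible Cas9 in polyclonal cultures that were then selected by withdrawal of R-spondin 1. The medium therefore cannot be told apart from the genotype in either comparison with WT, whereas Apc and P-Rspo3 organoids shared a medium. P-Rspo3 organoids also came from another transgenic line than the floxed WT and Apc lines, and had been through doxycycline and selection. Line of origin, doxycycline and selection thus cannot be told apart from genotype in Apc against P-Rspo3. The same holds in P-Rspo3 against WT, where NAIVE was the only WT library of the inducible Cas9 line. The titles and genotypes of 2 more libraries (LIPO and NAIVE_F) conflict, and those libraries entered no comparison.

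The 13 grouped libraries held 28902729 to 35528495 counts each. Rspo3 was at 6.26 to 11.5 FPKM (fragments scaled by gene length and library size) in P-Rspo3, at 0.0760 to 0.668 in Apc and at 0.0112 or less in WT. Apc itself was at 28.3 to 30.5 FPKM in Apc libraries and 11.6 to 22.3 in WT, but a count over the whole gene does not check the deletion of part of it. Stromal and endothelial markers summed to 0.494 FPKM or less in every grouped library, and the pan-leukocyte gene Ptprc was at 0.293 or less. The 8 immune cell markers summed to 1.60 to 2.91 FPKM in WT, 1.34 to 3.26 in P-Rspo3 and 3.89 to 10.4 in Apc. Among them Cd68 was at 3.65 to 10.1 FPKM in Apc, and Csf1r reached 1.72 in WT and 1.65 in P-Rspo3. The 8 enterocyte markers summed to 8109 to 14872 FPKM in WT, 5385 to 13270 in P-Rspo3 and 138 to 172 in Apc, so the cultures labelled Apc had little of the enterocyte programme. In bulk RNA, fewer cells of a type and less RNA per cell cannot be told apart. Nothing in the labels says that the libraries came from separate animals, and p-values measure the spread between these cultures.

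As background, Reg3b and Reg3g are lectins that kill or repel bacteria at the mucosal surface, and they are known for their induction by microbes and by interleukin-22 through STAT3. Dual oxidase 2 releases hydrogen peroxide at the apical membrane and needs its maturation factor Duoxa2 to reach it. The inducible nitric oxide synthase Nos2 makes nitric oxide from arginine, for which arginases compete.

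The Reg genes lie next to each other. On GRCm38, 6 protein-coding Reg genes occupied chr6:78370657-78468872, a stretch of 98216 bases, in the order Reg3b, Reg3d, Reg3a, Reg2, Reg1 and Reg3g. Reg3b, Reg3a and Reg1 are read from the plus strand and Reg3g from the minus strand. Duox2 (chr2:122279247-122298449, minus strand) and Duoxa2 (chr2:122298900-122302885, plus strand) are read away from each other, with RefSeq start sites 673 bases apart. RefSeq promoter windows of 300 bases on GRCm38.p6 were found for 8 of the 10 members. Those of the Reg genes are shown because neighbours in this cluster moved in opposite directions in Apc organoids, and those of Duox2 and Duoxa2 because both fell. Capitals mark matches, on either strand, to patterns of known sites. The first is TTCNNNGAA, the core of a STAT site. The TCF site of Wnt signalling was searched as CTTTGAT and no other spelling. The TATA box, which sets the start of many tightly regulated genes, was searched as TATAAA alone. None of the matches shown overlap.
Reg3b (chr6:78370635-78370934, plus strand): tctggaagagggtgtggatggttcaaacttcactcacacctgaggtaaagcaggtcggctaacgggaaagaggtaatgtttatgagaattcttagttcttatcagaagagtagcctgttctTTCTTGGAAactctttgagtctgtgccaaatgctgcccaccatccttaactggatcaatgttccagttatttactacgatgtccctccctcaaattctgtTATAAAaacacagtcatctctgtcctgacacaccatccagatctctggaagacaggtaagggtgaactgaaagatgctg
Reg3g (chr6:78468825-78469124, minus strand): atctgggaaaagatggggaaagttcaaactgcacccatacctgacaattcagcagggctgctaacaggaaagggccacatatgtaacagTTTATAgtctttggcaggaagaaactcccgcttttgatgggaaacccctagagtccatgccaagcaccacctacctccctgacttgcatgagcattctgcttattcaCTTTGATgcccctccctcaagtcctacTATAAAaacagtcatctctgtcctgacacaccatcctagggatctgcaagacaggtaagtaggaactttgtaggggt
Reg3a (chr6:78380459-78380758, plus strand): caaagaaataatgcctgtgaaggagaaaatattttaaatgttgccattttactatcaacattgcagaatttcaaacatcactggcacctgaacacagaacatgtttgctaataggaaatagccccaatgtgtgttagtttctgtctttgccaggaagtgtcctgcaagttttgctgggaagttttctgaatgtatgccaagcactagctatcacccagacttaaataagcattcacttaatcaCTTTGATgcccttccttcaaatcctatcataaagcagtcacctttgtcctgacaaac
Reg1 (chr6:78425733-78426032, plus strand): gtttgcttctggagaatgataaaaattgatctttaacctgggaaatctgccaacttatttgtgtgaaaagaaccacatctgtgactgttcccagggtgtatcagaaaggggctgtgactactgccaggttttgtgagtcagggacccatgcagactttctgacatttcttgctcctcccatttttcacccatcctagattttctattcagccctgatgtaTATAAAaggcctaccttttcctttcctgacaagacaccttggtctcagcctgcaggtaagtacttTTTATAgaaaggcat
Duox2 (chr2:122298178-122298477, minus strand): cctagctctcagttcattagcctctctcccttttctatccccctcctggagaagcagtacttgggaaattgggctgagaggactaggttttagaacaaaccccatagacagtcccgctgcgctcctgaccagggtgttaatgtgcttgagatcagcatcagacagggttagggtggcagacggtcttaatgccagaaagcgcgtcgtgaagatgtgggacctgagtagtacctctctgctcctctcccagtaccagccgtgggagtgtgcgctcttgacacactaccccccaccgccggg
Duoxa2 (chr2:122298650-122298949, plus strand): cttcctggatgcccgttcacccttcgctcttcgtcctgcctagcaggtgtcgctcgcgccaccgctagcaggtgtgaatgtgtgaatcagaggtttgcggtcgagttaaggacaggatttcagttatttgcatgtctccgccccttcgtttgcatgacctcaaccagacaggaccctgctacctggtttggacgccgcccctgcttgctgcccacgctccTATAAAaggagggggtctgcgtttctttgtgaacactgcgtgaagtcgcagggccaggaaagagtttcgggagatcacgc

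The STAT pattern occurred in the Reg3b window at position -129 from the start site and in the Pigr window at position 40. It occurred in 8.30% of all 32851 windows of the same length. The TCF pattern, held by 3.73% of windows, occurred in Reg3g at -54 and in Reg3a at -7, that is, in 1 gene that rose and 1 that fell in Apc organoids. TATAAA, held by 13.6% of windows, lay 27 to 30 bases before the start of Reg1, Reg3b, Reg3g and Duoxa2. The NF-kB site, searched as GGG and TTTCC with 2 free bases between and held by 1.63% of windows, was matched in none of the members' windows. The Reg3b and Reg3g windows were 69.9% identical over 296 aligned bases, with 29 identical bases in the longest run. Their transcripts were 74.7% identical, with a longest identical run of 35 bases, so how reads from identical stretches were assigned was decided by the authors' mapping.

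Among the members, the levels per length in WT organoids ran from Reg1 and Lypd8 down to the oxidases. Mean FPKM (± SD, n = 5) was 789 ± 559 for Reg1, 648 ± 115 for Lypd8, 376 ± 37.1 for Pigr, 84.8 ± 50.3 for Reg3a, 22.7 ± 7.44 for Reg3g and 10.9 ± 7.31 for Reg3b. Nos2 was at 1.37 ± 0.168, Duox2 at 0.702 ± 0.178 and Duoxa2 at 0.607 ± 0.252, and Retnlb was at 0. Reg1 and Lypd8 did not differ beyond their spread (Reg1 was the higher in 2 of 5 libraries), nor did Duox2 and Duoxa2 (4 of 5). The ranges of Reg3g and Reg3b overlapped, although Reg3g was the higher in 5 of 5. In Apc organoids the order changed: Reg3g led with 115 ± 61.2 (n = 4), followed by Reg3b with 64.0 ± 53.6, Lypd8 with 51.2 ± 17.1 and Pigr with 29.4 ± 11.1, with overlapping ranges between each of these neighbours. Reg3g was above Reg3b in 4 of 4 Apc libraries, but Reg3b was above Lypd8 in 1 of 4 (Apc 6). Reg1 came next with 2.32 ± 1.48. In P-Rspo3 organoids Lypd8, Reg1 and Pigr again led, with overlapping ranges between Lypd8 and Reg1 and between Reg1 and Pigr. The members took 0.280 to 0.469% of all counts in WT, 0.234 to 0.413% in P-Rspo3 and 0.0173 to 0.0541% in Apc.

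**Figure D1:**
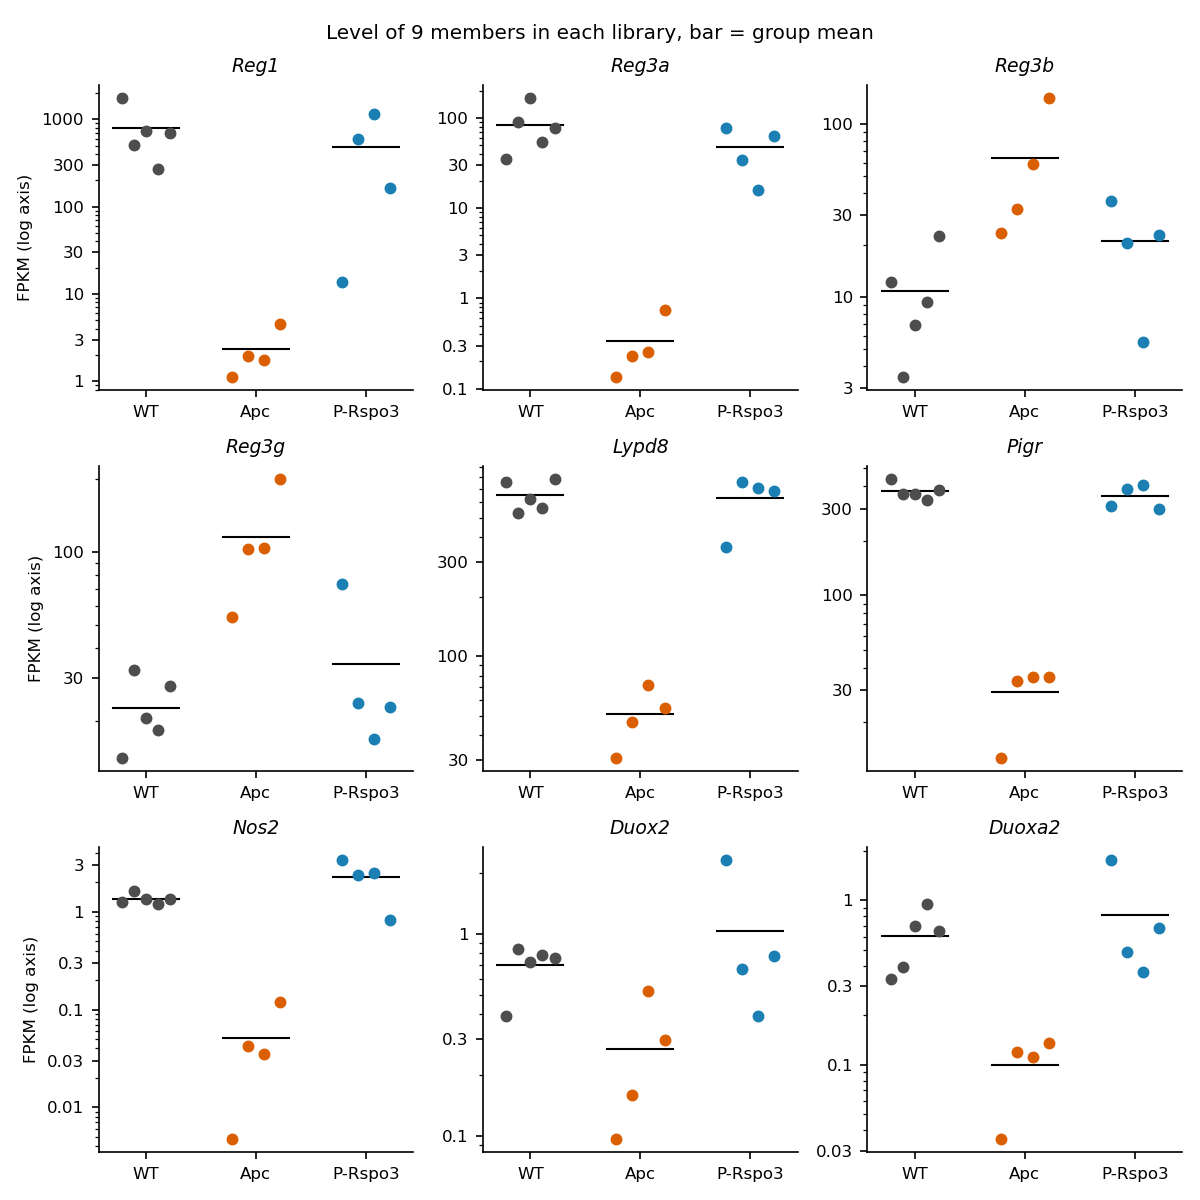
FPKM (log axis) of 9 members in each library of the WT (5 libraries), Apc (4) and P-Rspo3 (4) groups; points are libraries, in the order WT 1, 2, 5, 6, NAIVE, Apc 1, 2, 5, 6 and P-Rspo3 15d, 4d, M, F, and bars are group means. Reg3b and Reg3g are higher in Apc than in WT, the other 7 are lower, and 1 P-Rspo3 library (15d) stands apart for several genes.

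Of the 10 members, 9 could be tested by edgeR's quasi-likelihood test. A gene was called when its Benjamini-Hochberg adjusted p over all genes was under 0.05 and its log2 fold change exceeded 1 in size. In Apc against WT, 2 members were called higher (Reg3b and Reg3g) and 7 lower (Reg1, Reg3a, Lypd8, Pigr, Nos2, Duox2 and Duoxa2). Over all 16749 genes tested in that comparison, 12.2% were called higher and 14.1% lower, 26.3% in all. The groups' FPKM did not overlap for 8 of the 9 members (Duox2 overlapped), against 54.5% of all genes tested. Among those 8 members, Reg3b did overlap in TMM-normalised counts. The median log2 fold change of the 9 members was -3.94, and that of all genes tested was 0.00058. In Apc against P-Rspo3, 1 member (Reg3g) was called higher and the same 7 lower, where 13.4% and 13.3% of 16456 genes were called. FPKM did not overlap for 6 of the 9 members there, against 55.6% of genes, and their median log2 fold change was -3.81. In P-Rspo3 against WT no member was called by edgeR. In that comparison 0.00625% of 15992 genes were called higher and 0% lower, and the counts of called genes moved with the libraries and the tool: without WT NAIVE 166 genes were called higher and 100 lower, and DESeq2 called 55 and 173. An unadjusted p under 0.05 was found for 1 of the 9 members (Nos2) and for 2159 of all genes tested. None of the 9 members had non-overlapping FPKM in P-Rspo3 against WT, where 4.13% of genes did. The 3 comparisons share samples, so their values are given side by side and not as separate evidence.

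**Figure D2:**
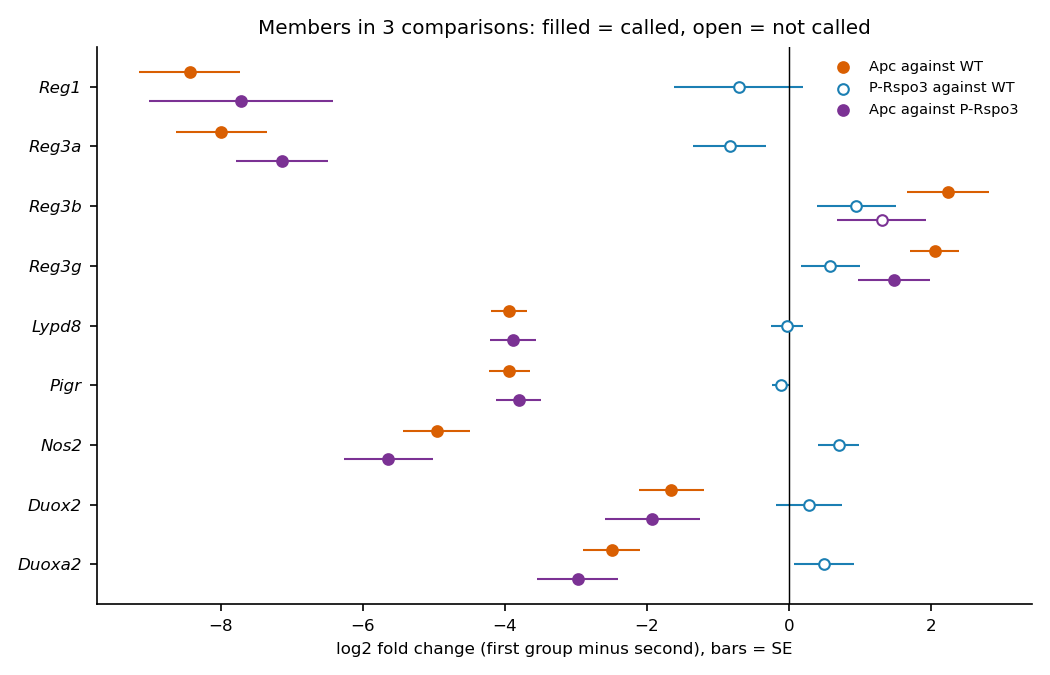
Log2 fold change (x axis, first group minus second) of 9 members in 3 comparisons, with bars of 1 SE from edgeR; filled points were called, open points were not. The 7 members lower in Apc lie at -1.66 to -8.44 against WT, and the P-Rspo3 points lie between -0.84 and 0.95.

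Reg1 encodes the secreted lectin lithostathine, and it fell in Apc organoids. Its FPKM was 1732, 507, 732, 272 and 701 in WT lines 1, 2, 5, 6 and NAIVE, 1.13, 1.94, 1.74 and 4.48 in Apc lines 1, 2, 5 and 6, and 13.6, 595, 1161 and 164 in P-Rspo3 15d, 4d, M and F. Every Apc library was below every library of the other groups, and WT and P-Rspo3 overlapped. The log2 fold change was -8.44 (SE 0.71, edgeR adjusted p = 2.74e-06) in Apc against WT and -7.71 (SE 1.29, adjusted p = 7.32e-04) against P-Rspo3. Between P-Rspo3 and WT it was -0.71 (SE 0.91, edgeR adjusted p = 0.781), and it ranged from -1.60 without P-Rspo3 M to -0.22 without WT 1.

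Reg3a fell as well. This C-type lectin gene was at 34.9, 91.4, 166, 53.8 and 77.9 FPKM in WT (lines 1, 2, 5, 6 and NAIVE), at 0.136, 0.230, 0.252 and 0.736 in Apc (lines 1, 2, 5 and 6) and at 77.3, 34.0, 15.8 and 63.8 in P-Rspo3 (15d, 4d, M and F). The Apc values rested on 4 to 24 counts per library and lay below all others. The log2 fold change was -7.99 (SE 0.64, edgeR adjusted p = 2.00e-06) against WT and -7.14 (SE 0.65, adjusted p = 1.73e-05) against P-Rspo3, and -0.84 (SE 0.52, adjusted p = 0.514) in P-Rspo3 against WT. The falls of Reg1 and Reg3a against WT differed by less than their SE, and without WT 1 the value of Reg3a (-8.20) was beyond that of Reg1 (-7.95).

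The antibacterial lectin Reg3b went the other way. It was at 12.2, 3.48, 6.88, 9.43 and 22.7 FPKM in WT, in the same order of libraries, at 23.4, 32.4, 58.8 and 141 in Apc and at 36.2, 20.5, 5.55 and 22.8 in P-Rspo3. By FPKM all Apc libraries were above all WT libraries, though Apc 1 (23.4) only just exceeded WT NAIVE (22.7). In TMM-normalised counts, the scaling used for the tests, Apc 1 (16.6 CPM) was below WT NAIVE (19.4 CPM). The separation of Apc from WT therefore held for FPKM only. Apc and P-Rspo3 overlapped. Reg3b rose in Apc against WT with a log2 fold change of 2.24 (SE 0.58, edgeR adjusted p = 0.00666). Without Apc 6 it was 1.52 (edgeR adjusted p = 0.0263). Against P-Rspo3 the change of 1.30 was not called (SE 0.63, adjusted p = 0.106, and 0.59 without Apc 6), nor was that of 0.95 in P-Rspo3 against WT (SE 0.55, adjusted p = 0.491).

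Reg3g, the paralogue at the far end of the cluster, also rose. Its FPKM was 14.1, 32.5, 20.4, 18.4 and 27.9 in WT, 53.7, 103, 103 and 199.7 in Apc and 74.0, 23.6, 16.8 and 22.8 in P-Rspo3. Apc was above WT in every library, and P-Rspo3 15d reached into the Apc range. Reg3g had a log2 fold change of 2.04 (SE 0.35, edgeR adjusted p = 4.30e-04) in Apc against WT and 1.48 (SE 0.51, adjusted p = 0.0332) against P-Rspo3. Between P-Rspo3 and WT it was 0.58 (SE 0.41, edgeR adjusted p = 0.585). The call against P-Rspo3 was lost when any of Apc 2, 5 or 6 or P-Rspo3 4d, M or F was left out, with adjusted p up to 0.0973 by edgeR.

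These opposite moves changed the makeup of the Reg signal. Of the summed FPKM of Reg1, Reg3a, Reg3b and Reg3g, Reg3b and Reg3g together took 1.47, 5.68, 2.95, 7.87 and 6.10% in WT 1, 2, 5, 6 and NAIVE, but 98.4, 98.4, 98.8 and 98.5% in Apc 1, 2, 5 and 6. The share in Apc was near its ceiling, and Reg3b alone took 23.6 to 40.8% there. The sum ranged from 78.4 to 346 FPKM in Apc and from 353 to 1793 in WT. In P-Rspo3 4d, M and F the share was 6.55, 1.86 and 16.7%, and in 15d it was 54.8%. The values of F and 15d lay outside the ranges of both other groups. Reg1 supplied 76.9 to 96.6% of the sum in WT and 1.06 to 1.44% in Apc. Of the other genes in the cluster, Reg3d, which lies between Reg3b and Reg3a, fell in Apc against WT from a mean of 0.908 to 0.123 FPKM (log2 fold change -2.62, edgeR adjusted p = 2.55e-04), and Reg2 had 5 counts or fewer in every library. Within 98216 bases, the first and last genes thus rose, and those tested between them fell.

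**Figure D3:**
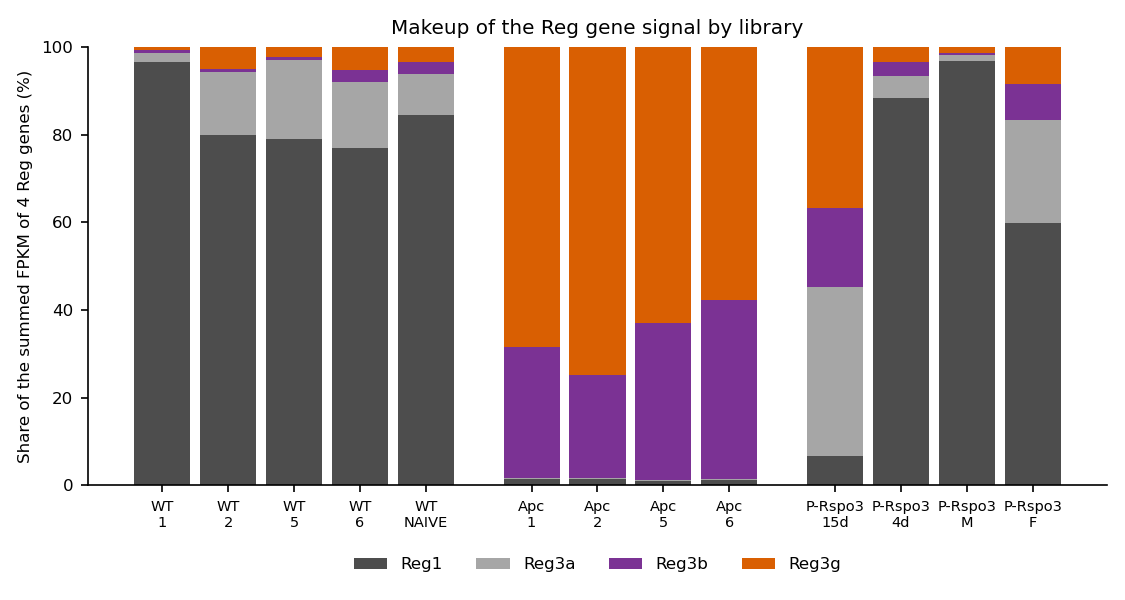
Share of the summed FPKM (y axis, percent) that Reg1, Reg3a, Reg3b and Reg3g each took in every grouped library. Reg1 fills most of each WT bar, Reg3b and Reg3g fill over 98% of each Apc bar, and the 15d bar of P-Rspo3 is mixed.

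Retnlb encodes a resistin-like goblet cell protein that is induced by bacteria and by type 2 cytokines. It had 0 counts in all 5 WT and all 4 P-Rspo3 libraries, where each library allows up to 3 counts at this depth, and 1, 0, 0 and 3 counts in Apc 1, 2, 5 and 6. It did not pass the filter on low values and was not tested, and its expression was not detectable above that floor in any group.

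Lypd8 and Pigr, products of differentiated epithelium, were among the highest members in WT and fell by about the same amount. Lypd8 was at 757, 528, 620, 558 and 779 FPKM in WT 1, 2, 5, 6 and NAIVE, at 31.0, 46.8, 72.1 and 54.9 in Apc 1, 2, 5 and 6, and at 357, 756, 708 and 680 in P-Rspo3 15d, 4d, M and F. No Apc library overlapped either other group. The log2 fold change was -3.94 (SE 0.25, edgeR adjusted p = 4.13e-07) against WT and -3.89 (SE 0.33, adjusted p = 1.12e-05) against P-Rspo3. P-Rspo3 differed from WT by -0.03 (SE 0.22, edgeR adjusted p = 0.981).

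Pigr was the steadiest member in WT, at 435, 363, 363, 335 and 381 FPKM. In Apc it was at 12.8, 34.0, 35.5 and 35.5, and in P-Rspo3 at 311, 386, 407 and 300. Apc lay below all other libraries, and Apc 1 was well below its own group. The log2 fold change was -3.94 (SE 0.29, edgeR adjusted p = 9.86e-07) against WT, -3.81 (SE 0.32, adjusted p = 1.02e-05) against P-Rspo3 and -0.12 (SE 0.13, adjusted p = 0.736) in P-Rspo3 against WT. Between groups, markers of several epithelial cell types were lower in Apc as well. All 8 enterocyte markers were called lower against WT (median log2 fold change -8.30, with Vil1 changing least, from a mean of 180 to 91.9 FPKM), as were 6 of 7 goblet cell markers (median -3.74) and 5 of 6 Paneth cell markers (median -3.18). Within Apc and P-Rspo3 the enterocyte sum did not follow Pigr. Apc 1, with the lowest Pigr of its group, had the highest enterocyte sum (172 FPKM), and so had P-Rspo3 F (13270 FPKM). In WT, line 6 was lowest in both (sum 8109 FPKM), whereas line 1 had the highest Pigr and line 5 the highest sum (14872 FPKM). The part of cell type makeup in the fall of Lypd8 and Pigr was not tested.

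Nos2 was at 1.26, 1.64, 1.34, 1.21 and 1.37 FPKM in WT, at 0.00479, 0.0426, 0.0351 and 0.121 in Apc, and at 3.37, 2.39, 2.49 and 0.824 in P-Rspo3. These levels rested on 244 to 292 counts per library in WT, 2 to 26 in Apc and 155 to 672 in P-Rspo3. Apc was below both other groups without overlap, and 3 of the 4 P-Rspo3 libraries were above every WT library. Nos2 had a log2 fold change of -4.96 (SE 0.48, edgeR adjusted p = 7.02e-06) against WT and -5.64 (SE 0.63, adjusted p = 5.77e-05) against P-Rspo3. In P-Rspo3 against WT it was 0.70 (SE 0.29, unadjusted p = 0.0380 and adjusted p = 0.334 by edgeR), so this difference was not called.

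Duox2 was low in all groups, at 0.393, 0.842, 0.723, 0.789 and 0.763 FPKM in WT, 0.0970, 0.160, 0.524 and 0.297 in Apc and 2.31, 0.668, 0.390 and 0.778 in P-Rspo3. Apc 5 (0.524) lay above WT 1 (0.393), so the Apc and WT groups overlapped. Its log2 fold change was -1.66 (SE 0.46, edgeR adjusted p = 0.00902) against WT, and -1.93 (SE 0.67, adjusted p = 0.0332) against P-Rspo3. The latter was not called without P-Rspo3 15d (-1.17, edgeR adjusted p = 0.112) or without Apc 1, 2 or 6. P-Rspo3 differed from WT by 0.28 (SE 0.46, edgeR adjusted p = 0.845), and it became -0.47 without 15d.

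Its maturation factor Duoxa2 was at 0.334, 0.395, 0.702, 0.958 and 0.649 FPKM in WT, 0.0355, 0.119, 0.111 and 0.135 in Apc and 1.75, 0.485, 0.367 and 0.678 in P-Rspo3. The counts behind these values were few, 13 to 31 per WT library and 2 to 8 per Apc library, and no Apc library overlapped the other groups. Duoxa2 had a log2 fold change of -2.50 (SE 0.40, edgeR adjusted p = 2.92e-04) against WT and -2.98 (SE 0.57, adjusted p = 0.00158) against P-Rspo3. P-Rspo3 differed from WT by 0.49 (SE 0.42, edgeR adjusted p = 0.648) and -0.08 without 15d. Duoxa2 shares 695 bases with Duoxa1 on the opposite strand, which had at most 2 counts in any library.

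The titles of the WT and Apc libraries share line numbers, and libraries of the same number are set side by side here, although nothing in the labels ties a number to 1 animal. Reg1 was 1530-fold lower in Apc than in WT in line 1, 261-fold in line 2, 422-fold in line 5 and 60.6-fold in line 6. Reg3b was 1.92-fold higher in line 1, 9.31-fold in line 2, 8.55-fold in line 5 and 14.96-fold in line 6. Reg3g was 3.81-, 3.16-, 5.06- and 10.9-fold higher in the same lines. The direction was the same in all 4 lines for each of the 9 members tested. Line 1 had the largest loss of Lypd8 (24.5-fold, against 8.60- to 11.3-fold in the others) and Pigr (33.9-fold, against 9.44- to 10.7-fold). For Nos2, Apc 1 had only 2 counts and is given no ratio, and the other lines lost 10.0- to 38.5-fold. Apc 1 had the lowest FPKM of the Apc libraries for all 9 tested members, and Apc 6 had the highest for 7 of them (Reg1, Reg3a, Reg3b, Reg3g, Pigr, Nos2 and Duoxa2). The enterocyte markers did not follow this order, since they summed to 172 FPKM in Apc 1 and to 138 in Apc 6. The immune marker sum did, with 3.89 FPKM in Apc 1, 5.47 in Apc 2, 6.98 in Apc 5 and 10.4 in Apc 6, nearly all of it Cd68 (3.65 to 10.1 FPKM), while Ptprc was at 0.00954 or less in these libraries. The stromal and endothelial sum had the same order at very low levels (0.221, 0.260, 0.303 and 0.423 FPKM), and the colon sum was also highest in Apc 6 (4.41 FPKM). The part of these markers in the members' levels was not tested.

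**Figure D4:**
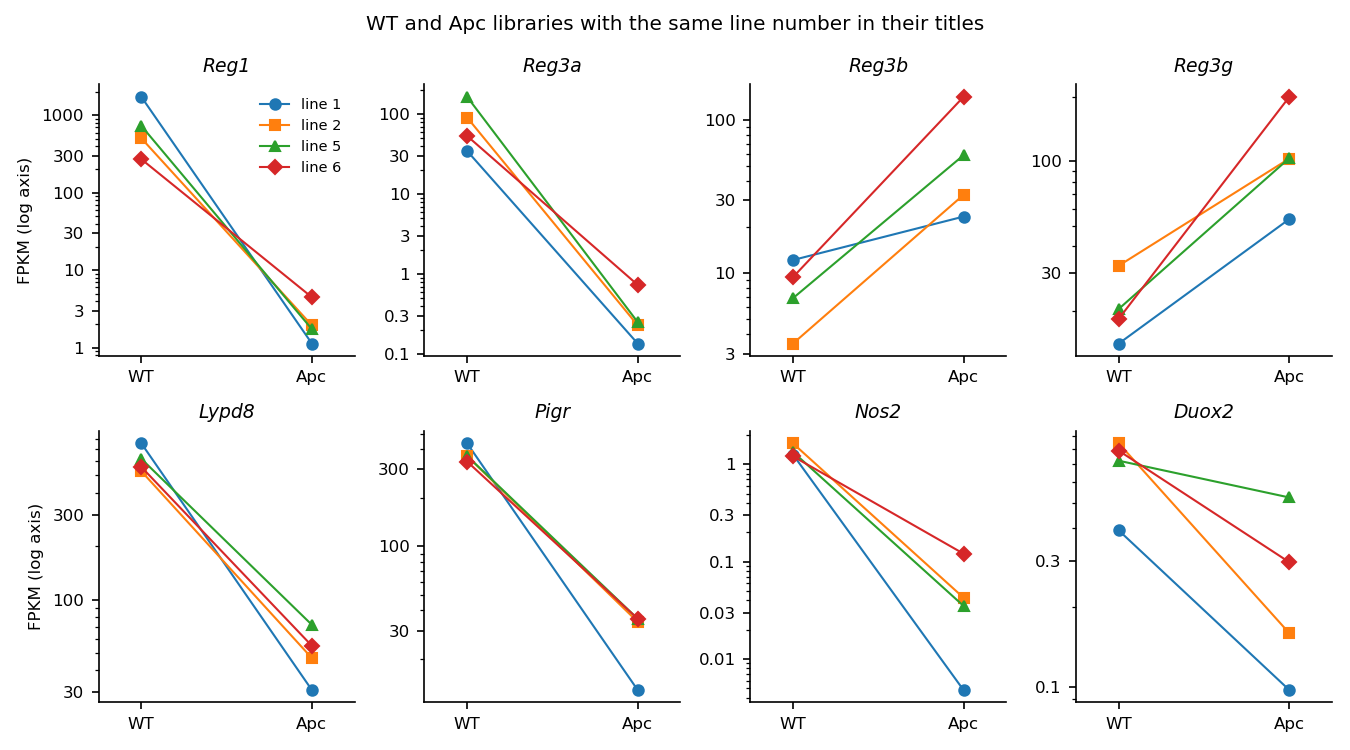
FPKM (log axis) of 8 members in WT and Apc libraries of the same line number, with 1 connected pair per line. All 4 lines go up for Reg3b and Reg3g and down for the other genes shown. Line 1 has the steepest fall for Reg1, Lypd8, Pigr and Nos2, the last from 2 counts in Apc 1.

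Within P-Rspo3, the 15d library carried much of the spread. Its Reg1 level of 13.6 FPKM was 46.9-fold below the mean of the other 3 libraries (640) and above every Apc library. Lypd8, at 357, was below the mean of the others (715), and Pigr (311) was within the range of the others. In contrast, 15d had the highest level of its group for 6 members: it exceeded the mean of the others 3.77-fold for Duox2, 3.51-fold for Reg3g, 3.44-fold for Duoxa2, 2.22-fold for Reg3b, 2.04-fold for Reg3a and 1.77-fold for Nos2. For each of these but Reg3a it also exceeded every WT library. Its Reg3b and Reg3g levels lay within the range of the Apc libraries, whereas its Reg3a, Nos2, Duox2 and Duoxa2 levels lay above every Apc library. Among cell type markers, 15d had the lowest enterocyte sum of its group (5385 FPKM, others 6338 to 13270), with Alpi at 62.0 against 204 to 403, and the highest Paneth cell sum (8160, others 3618 to 7191) and stem cell sum (876, others 491 to 583). It also had the highest enteroendocrine (113), tuft (6.40) and colon (3.23) sums of its group and the lowest immune (1.34) and stromal and endothelial (0.168) sums, and its goblet cell sum (2971) was within the range of the others. Whether these markers account for the members' levels was not tested. The titles of 15d and 4d are EN15d and EN4d. The labels do not say what is timed or whether these libraries came from separate cultures. A single library has no replicate.

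**Figure D5:**
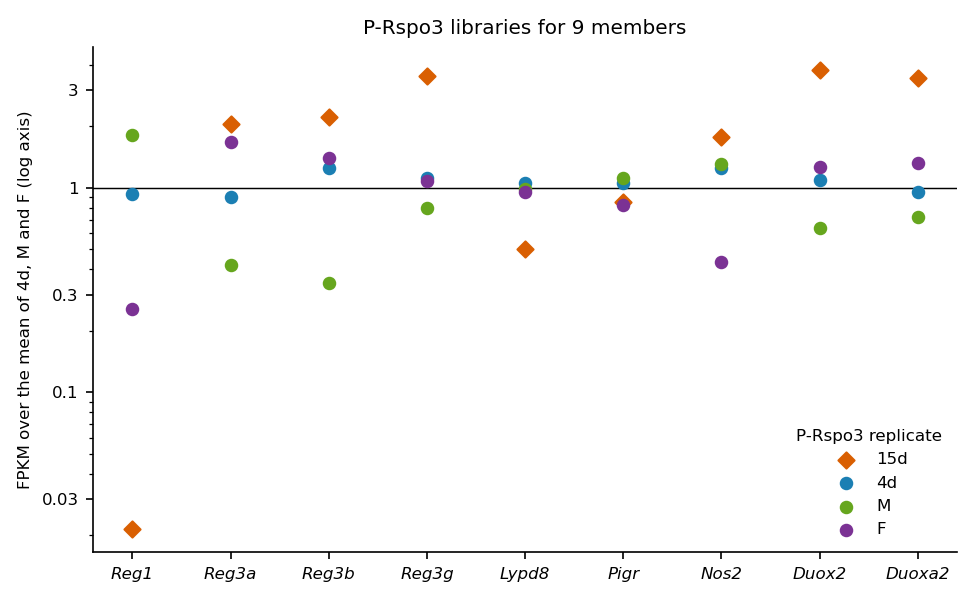
FPKM of 9 members in each P-Rspo3 library divided by the mean of 4d, M and F (log axis; the line marks 1). Diamonds are 15d, which lies 46.9-fold below the mean for Reg1 and 3.77-fold above it for Duox2.

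The members differed in how steady they were among WT libraries. The coefficient of variation of TMM-normalised counts was 68.5% for Reg1, 68.1% for Reg3b, 62.8% for Reg3a, 33.5% for Reg3g, 27.2% for Duox2, 18.2% for Lypd8, 13.4% for Nos2 and 9.52% for Pigr, and the median of 12132 genes was 11.8%. Reg1, Reg3a and Reg3b varied at least as much as 98.6%, 98.4% and 98.6% of these genes. In P-Rspo3 they were 105% for Reg1, 84.5% for Duox2, 76.4% for Reg3g, 58.6% for Reg3a, 57.5% for Reg3b, 44.1% for Nos2, 30.1% for Lypd8 and 15.4% for Pigr, where the median gene was at 11.7%. The values of Reg3a and Reg3b were below those in WT and the others above. Over the 13 grouped libraries, deviations from the group means on a log scale were compared for all 28 pairs of 8 members, and Pearson's r ranged from -0.77 to 0.82 with a median of 0.22. Reg3g and Duox2 had r = 0.82 (Spearman's rho = 0.84, and r = 0.71 without 15d), and Lypd8 and Pigr had r = 0.73 (rho = 0.62, and r = 0.77 without 15d), so the order of these pairs depended on 15d. The pair with r of -0.77 was Reg1 and Duox2, with r = -0.38 once the 2 libraries farthest in Reg1 were left out. All points share libraries and depth, and these are descriptions over 13 libraries.

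By the same measure over 12632 genes, the genes whose deviations were most like those of each member were Arhgap9 (r = 0.95) and Adh4 (0.94) for Reg1, and Ptprj and Slc23a1 (both 0.93) for Reg3a. For Reg3b they were Unc45a (0.89) and Vav1 (0.88), and for Reg3g Entpd3 (0.95) and Nrp2 (0.93). Lypd8 was nearest to Umad1 (0.93) and Zfand3 (0.92), and Pigr to Rnf149 (0.92) and Cradd (0.90). Nos2 was nearest to Creb3l4 (0.94) and 2610528A11Rik (0.90), and Duox2 to Zbtb8a and Mecom (both 0.93). No member appeared among the nearest genes of another.

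The members were then set beside other genes of mucosal defence. Of 3 other Reg genes, 2 were tested in Apc against WT and both fell: Reg3d, above, and Reg4, a marker of secretory cells, from 104 ± 25.5 (SD, n = 5) to 14.3 ± 10.3 FPKM (n = 4; log2 fold change -3.12, edgeR adjusted p = 7.27e-05). Of 25 other secreted antimicrobial and acute-phase genes, 17 were tested, 8 fell and 4 rose, with a median log2 fold change of -1.66, also with Zg16 and Saa3 at their bounds. Those that rose were Pla2g2a, a secreted phospholipase (3.75, from 10.7 ± 1.75 to 189 ± 84.4 FPKM), Ltf, which encodes the iron-binding lactoferrin (3.96, from 0.0816 to 1.60 FPKM), Mmp7, the protease that activates Paneth cell defensins (1.74, from a mean of 40.3 to 164 FPKM), and the acute-phase gene Saa3, which had at most 3 counts in any WT library and 12 in Apc and was at least 1.83-fold higher in Apc, taking 3 counts per WT library as the floor. Those that fell included the lectin Itln1 (-3.81), the ribonuclease Ang4 (-2.55) and the lysozymes Lyz1 (-2.10) and Lyz2 (-1.66). Zg16, a goblet cell lectin, had at most 3 counts in any Apc library and was at least 362-fold higher in WT by the same floor per library. Sprr2a1, Sprr2a2 and Sprr2a3 also fell, but they are near-identical copies that the counting could split. Paneth cell markers summed to 651 to 1566 FPKM in Apc against 6198 to 9866 in WT, and goblet cell markers to 203 to 516 against 1857 to 2568, and their part in these changes was not tested.

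Of 13 other NADPH oxidase and nitric oxide genes, 7 were tested in Apc against WT. Cyba had no FPKM value, so it did not pass the filter and was not tested. Its counts reached 3268 in an Apc library, 1169 in WT and 1015 in P-Rspo3. Nox1, the other epithelial oxidase, fell (log2 fold change -1.95, from 7.74 ± 5.80 to 2.59 ± 1.24 FPKM, edgeR adjusted p = 0.00559). The arginases parted: Arg2, the mitochondrial form, fell from 82.7 ± 28.2 to 0.169 ± 0.0973 FPKM (-9.28, edgeR adjusted p = 3.46e-08), and Arg1, the cytosolic form, rose from 0.321 ± 0.0708 to 2.25 ± 1.51 (2.39, adjusted p = 3.69e-04). The median of the 7 was -0.79.

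Receptors and transducers through which cytokines act on these genes were tested in full, 18 of 18, and 7 fell and none rose in Apc against WT (median log2 fold change -0.67). The interleukin-22 receptor subunits Il22ra1 (-1.24) and Il10rb (-1.32) fell, as did the feedback inhibitor Socs3 (-1.05), the interleukin-17 receptor subunit Il17rc (-1.56), Nfkbiz (-1.67), which encodes a nuclear cofactor of NF-kB, Il13ra1 (-1.40) and the interferon gamma receptor subunit Ifngr1 (-2.07). Stat3 had a log2 fold change of -0.00056 (SE 0.12). Signalling through these receptors, and its part in the levels of Reg3b and Reg3g, was not tested. Of 23 pattern recognition and NF-kB genes, 22 were tested, 3 rose and 2 fell (median -0.10), a count near or below the 12.2% and 14.1% of all genes. The lipopolysaccharide receptor Tlr4 rose from 0.0285 ± 0.0476 to 7.44 ± 1.74 FPKM (log2 fold change 8.41, edgeR adjusted p = 2.64e-07, at most 5 counts in any WT library), Il1r1 rose from 0.0177 to 1.30 FPKM (5.70) and Tlr2 from 0.232 to 1.96 FPKM (2.79). Tlr1 (-2.34) and the cytokine gene Il18 (-3.05) fell. The myeloid marker Cd68 was also higher in Apc (2.55), while Csf1r (-3.92) and Lyz2 (-1.66) were lower and Ptprc was near 0. Their part in the rise of Tlr4, Tlr2 and Il1r1 was not tested.

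In P-Rspo3 against WT no gene of these 5 lists was called, where 0.00625% of all genes were, and their medians lay between -0.43 and -0.08. In Apc against P-Rspo3, in a shared medium, the lists gave similar counts to those against WT: 2 of 2 other Reg genes fell, 10 secreted antimicrobial genes fell (Mptx1 and Mptx2 in addition to those above) and 3 rose, Nox1 and Arg2 fell and Arg1 rose, 6 cytokine receptor genes fell (Socs3, at -0.999 with edgeR adjusted p = 0.00823, just missed the fold threshold), and 4 pattern recognition genes rose (Nod1 in addition) and 2 fell. Over the 5 lists together, 21 of 66 genes tested were called lower and 8 higher against WT, where 14.1% and 12.2% of all genes were, and 22 and 8 of 65 against P-Rspo3, where 13.3% and 13.4% were. The count called higher was thus close to that of all genes.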

How the data were processed

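Polyadenylated RNA was sequenced from 15 organoid cultures, and library totals bound the precision of each value. Per the study's methods and the submitters' notes, STAR mapped the reads (GRCm38), and the authors deposited HTSeq 0.6.0 counts per gene, which are raw, and Cufflinks 2.2.1 FPKM values per gene, which are scaled by gene length and library size. The annotation release and the strand setting are not given in the sources used here.

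Groups followed the labels. Counts of genes that reached 0.1 FPKM in at least n libraries, n being the size of the smaller group, were tested with edgeR 4.0.16 (R 4.3.3, TMM normalisation, quasi-likelihood F-test, no covariate), each comparison in its own fit, and calls needed both a log2 fold change beyond 1 in size and p under 0.05 after Benjamini-Hochberg adjustment. The code was tested on simulated data. No libraries of a group agreed within sampling noise. The members, gene lists and tests were chosen with earlier results of these data known. All 10 members are named, list genes are named where called (or up to 4 per list with the largest change), and likeness is given for the 2 nearest genes of each member with a mean CPM of at least 1. Coordinates are those of the GENCODE annotation on GRCm38, start sites and promoter windows those of RefSeq on GRCm38.p6 (both 1-based), and windows and transcripts were aligned with Biopython 1.88. Marker and Reg sums are sums of deposited FPKM.

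Alternatives were DESeq2 1.42.0, limma 3.58.1 on log2(FPKM + 1) and log2(FPKM + 0.1), other filters and scalings, each library left out and a replicate block.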

Additional observations from a re-analysis of the deposited data

Results flagged for a closer look

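Within the groups, the level of 3 members in 1 library each lay far from the rest by Dixon's test, of 28 groups of values examined, where chance marks about 1 in 20. Reg3g was at 74.0 FPKM in P-Rspo3 15d, and the other 3 libraries held 16.8 to 23.6. Pigr was at 12.8 FPKM in Apc 1, and the others held 34.0 to 35.5. Duox2 was at 0.393 FPKM in WT 1, and the other WT libraries held 0.723 to 0.842.

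The 2 libraries without a group exceeded the highest WT library for 3 members. Reg1 was at 2505 FPKM in NAIVE_F, where the highest WT library held 1732 and the highest P-Rspo3 library 1161. Reg3b was at 24.8 FPKM in LIPO, where the highest WT library held 22.7, and Lypd8 was at 979 FPKM in LIPO, where the highest WT library held 779.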

How the results depend on the processing

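Of 189 member values recomputed for Apc against WT, 187 kept their direction and side of the threshold and none changed sign. The exceptions were Duox2 (-0.43) and Duoxa2 (-0.53) under limma on log2(FPKM + 1), where the pseudocount exceeds their levels. That setting also ended their calls against P-Rspo3 (-0.61 and -0.67). limma moved the median of all genes to 0.17 with a pseudocount of 1 and 0.28 with 0.1 in Apc against WT. With line number as a replicate block, 2 members were called higher and 7 lower as before, in a fit of 8 libraries without NAIVE, and no call of a member changed. Same-numbered WT and Apc libraries deviated from their group means with r = 0.022 to 0.200 (4 pairs, median 0.0931). The 12 other pairs had r = -0.173 to 0.143 (median -0.0300). The same-numbered values were all above 0 but small, and the ranges overlapped. They do not decide whether libraries of a number were derived from each other, and the fit without a block was kept as the main one. For Apc against P-Rspo3, 150 of 162 values kept direction and call, and the number of members called higher ranged from 0 to 1 when libraries were left out, since Reg3g lost its call in 6 such fits. The Duox2 call was lost without Apc 1, Apc 2, Apc 6 or P-Rspo3 15d. In P-Rspo3 against WT no member was called under any alternative, and 6 of 180 values changed sign, all with libraries left out. They were Reg3g, Lypd8, Duox2 and Duoxa2 without P-Rspo3 15d, and Lypd8 without WT 1 (0.02) and without NAIVE (0.05). Over the fits without 1 library Reg3g ranged from -0.096 to 0.81, Lypd8 from -0.13 to 0.17, Duox2 from -0.47 to 0.56 and Duoxa2 from -0.076 to 0.74, with 15d left out at -0.096, 0.17, -0.47 and -0.076. Reg1 ranged from -1.60 to -0.22 over the same fits and was -0.0015 with the ungrouped libraries placed by genotype label. The causes were not tested. Adding NAIVE_F to WT could not alter Apc against P-Rspo3 and was not run there. Counts of 2 to 26 for Nos2 and 2 to 8 for Duoxa2 in Apc limit the size of their changes. Over all genes, P-Rspo3 against WT gave 1 gene higher and 0 lower, but 166 and 100 without WT NAIVE, 55 and 173 with DESeq2, 11 and 63 with all 3 groups in 1 fit, and 0 to 3 and 0 to 11 otherwise. In Apc against WT limma with a pseudocount of 1 called 1418 genes higher and 1132 lower, and adjusted p alone 5028 and 4864; against P-Rspo3 these were 1430 and 1124, and 4719 and 4557.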

Other observations

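For the other members, the ungrouped libraries LIPO and NAIVE_F held Reg3a at 40.8 and 67.7 FPKM, Reg3g at 15.8 and 27.2, Pigr at 361 and 417 and Duoxa2 at 0.262 and 0.416. Nos2 was at 0.393 in LIPO, below every WT library, and at 1.36 in NAIVE_F. Duox2 was at 0.292 and 0.297, below every WT library and every P-Rspo3 library (0.390 or more) in both. Reg3b and Reg3g together took 2.65% of the summed FPKM of the 4 Reg members in LIPO and 1.64% in NAIVE_F. Rspo3 was at 0 FPKM in LIPO, where WT held 0.0112 or less, and at 8.54 in NAIVE_F, within the P-Rspo3 range of 6.26 to 11.5. Both levels match the genotype labels of these libraries.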
